A study of Mus musculus with 8 samples.

Results

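The genes for matrix metalloproteinases (MMPs), ADAMTS proteases and tissue inhibitors of metalloproteinases (TIMPs) were examined in PyMt mammary tumors treated with topical calcipotriol or with its solvent, ethanol (EtOH). Members were the genes of the count table whose symbol in the GENCODE M21 annotation is Mmp, Adamts or Timp followed by the family number and that encode a protein. This gave 46 of the 55414 genes in the table, 23 Mmp, 19 Adamts and 4 Timp genes. GENCODE M21 calls Mmp1a a polymorphic pseudogene and RefSeq calls it protein-coding. It was kept as a member, a choice made after its values had been seen.

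MMPs and ADAMTS proteases are zinc enzymes that cut the proteins of the extracellular matrix and many cell surface proteins. MMPs are made as inactive precursors, and TIMPs block the active enzymes by binding their catalytic site. In mammary tumors these genes are expressed by tumor cells and by fibroblasts, endothelial cells and leukocytes, and the balance of protease to inhibitor is studied in invasion, vessel growth and matrix turnover.

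Tumors were grown in WT female C57BL/6 mice by implanting PyMt cells into the inguinal mammary fat pad. The PyMt line came from a mammary tumor of a transgenic mouse in which the MMTV promoter drives the polyoma middle T oncogene in mammary epithelium. Calcipotriol, a vitamin D analog, was applied at 20 nmol in ethanol every 2 days, beginning 2 days after implantation, and control mice received EtOH. In both groups, 24 hours lay between the final application and tumor collection. Recipients in this treatment design were 6 to 8 weeks old. There were 4 EtOH-treated tumors, replicates 1, 2, 3 and 4, and 4 calcipotriol-treated tumors, replicates 1, 5, 6 and 7, with 1 library each. The labels call the material epithelial, but whole tumors were extracted, and markers of fibroblasts, endothelial cells and macrophages were measured in it. Of 8 epithelial markers, Krt8 and Krt18 were abundant, while Cldn7, Elf3 and Esrp1 were below 2 CPM in all tumors and Epcam had 0 CPM in EtOH replicates 1 and 2. The libraries of EtOH replicates 1, 2, 3 and 4 held 20908409, 21912723, 25084715 and 23166539 counts. Those of calcipotriol replicates 1, 5, 6 and 7 held 24673432, 22272072, 19685397 and 22383679.

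Levels are given as CPM, counts of a gene relative to the size of its library, after TMM scaling, which sets library sizes so that most genes do not differ. Fold changes are calcipotriol over EtOH on the log2 scale with a standard error (SE). Adjusted p-values are Benjamini-Hochberg values, in the main fit over the 14458 genes tested with edgeR's quasi-likelihood test. In each alternative fit they are adjusted over the genes tested in that fit. A gene was called where its adjusted p was under 0.05 and its log2 fold change reached 1 in either direction.

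Within each group some tumors stood apart. Across genes, which are not independent replicates, the correlation of log2 CPM was 0.959 between EtOH replicates 1 and 2 and 0.958 between EtOH replicates 3 and 4, but 0.919 to 0.934 between these pairs. Calcipotriol replicate 1 correlated at 0.931 to 0.945 with the other calcipotriol-treated tumors, which correlated at 0.958 to 0.977 with each other. Of the 29 members with enough counts to be tested, 12 were higher in both EtOH replicates 1 and 2 than in both 3 and 4, and 10 were lower in both. Over all genes tested, these shares were 29.0% and 29.3%. Calcipotriol replicate 1 lay above the other 3 calcipotriol-treated tumors for 17 of the 29 members (31.0% of all genes tested) and below them for 6 (30.5%). Results that rest on these tumors are given with and without them.

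Timp1 was higher in calcipotriol-treated tumors, and it was the only member called with edgeR's quasi-likelihood test. This is 1 of 29 members, while 1.07% of all genes tested were called higher. In the other direction 0 of the 29 members were called, against 0.948% of all genes tested. At an unadjusted p under 0.05, 5 members were higher and 6 were lower, together 37.9% of the members and 18.4% of all genes. DESeq2 in place of edgeR called 2 members higher (Adamts15 and Timp1) and 2 lower (Adamts9 and Mmp9), and limma-voom called 1 higher (Timp1) and 0 lower. Of all 14405 genes tested with DESeq2, 324 were called higher and 320 lower. Of all 14458 tested, limma-voom called 125 higher and 149 lower, and edgeR 155 and 137. Left out in turn, 6 of the 8 tumors each took the call of Timp1 away, and without calcipotriol replicate 1 Mmp10 was called lower, with 9.81 CPM in that tumor and 1.55 to 1.87 CPM in calcipotriol replicates 5, 6 and 7. The groups did not overlap for 1 member that was higher with calcipotriol, Timp1, and for 3 that were lower, Mmp9, Mmp14 and Mmp15. Over all genes tested, 6.32% were higher and 6.16% lower without overlap. With library totals in place of TMM, the groups overlapped for Mmp9 and did not for Mmp13 and Mmp19, which were higher with calcipotriol. Among all genes, 1255 were then higher and 615 lower without overlap, against 914 and 890 with TMM. The median log2 fold change was 0.00 over the 29 members and 0.02 over all genes tested.

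**Figure D1:**
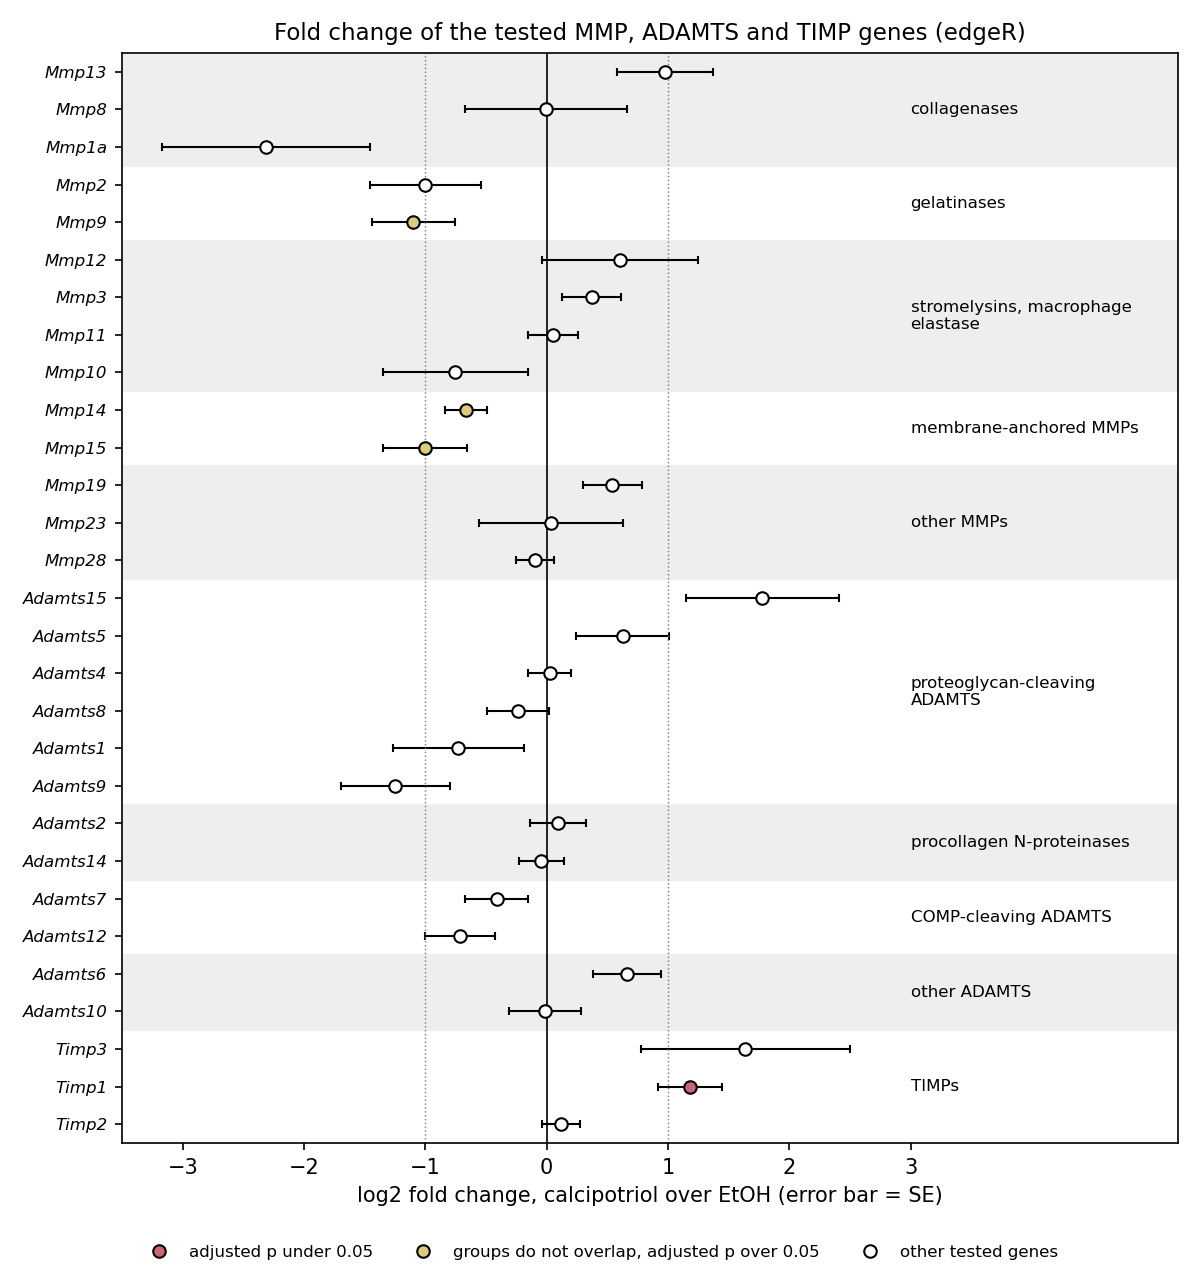
Log2 fold change of calcipotriol- over EtOH-treated tumors (x axis) for each of the 29 tested members, grouped by role, from edgeR with 4 tumors per group. Points are estimates, error bars are the SE, dotted lines mark a log2 fold change of 1 in each direction, and Timp1, at 1.18, is the only point filled red for an adjusted p under 0.05, with yellow for other members whose groups do not overlap.

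Of the 4 inhibitors, 3 were tested, and each had a log2 fold change above 0. Timp1 (ENSMUSG00000001131, chromosome X, 20870166 to 20874735 in GRCm38) encodes a secreted inhibitor of most soluble MMPs. It was at 149, 136, 283 and 312 CPM in EtOH replicates 1, 2, 3 and 4 and at 501, 501, 557 and 434 CPM in calcipotriol replicates 1, 5, 6 and 7. Every calcipotriol-treated tumor lay above every EtOH-treated tumor, and EtOH replicates 1 and 2 were the lowest of all. EtOH-treated tumors averaged 220 ± 90.1 CPM and calcipotriol-treated tumors 498 ± 50.4 CPM (SD, n = 4 each). Timp1 thus rose by a log2 fold change of 1.18 (SE 0.26, adjusted p = 0.0432 with edgeR's quasi-likelihood test). Permuting log2 CPM over the tumors gave an exact two-sided p of 0.0286, the smallest that the 70 arrangements of 4 and 4 allow. Groups of 4 that do not overlap always give this value, so it only restates the lack of overlap. With 1 tumor left out in turn, the edgeR call was lost without EtOH replicate 1, 2 or 3 and without calcipotriol replicate 5, 6 or 7 (adjusted p = 0.0598 to 0.123), and held without EtOH replicate 4 (adjusted p = 0.0310) or calcipotriol replicate 1 (adjusted p = 0.0386). Without both EtOH replicates 1 and 2, the log2 fold change was 0.75 (adjusted p = 0.0636 with edgeR). Without both EtOH replicates 3 and 4, it was 1.80 (adjusted p = 0.00167 with edgeR). Over all alternatives the adjusted p ran from 0.000230 to 0.123.

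Timp2 encodes an inhibitor that also binds MMP14 at the cell surface, where the complex takes part in activating the MMP2 precursor. It was at 1325, 1295, 984 and 949 CPM in EtOH replicates 1, 2, 3 and 4 and at 1348, 1072, 1212 and 1307 CPM in calcipotriol replicates 1, 5, 6 and 7. The groups overlapped, with EtOH replicates 3 and 4 lowest. The difference was a log2 fold change of 0.12 (SE 0.16, adjusted p = 0.750 with edgeR's quasi-likelihood test).

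Timp3 encodes an inhibitor that is bound to the matrix and that also blocks ADAMTS proteases. The EtOH-treated tumors had 91.8, 95.5, 39.5 and 31.5 CPM in replicates 1, 2, 3 and 4, and the calcipotriol-treated tumors had 656, 48.1, 49.1 and 50.1 CPM in replicates 1, 5, 6 and 7. Calcipotriol replicate 1 was far above all other tumors, and the other 3 calcipotriol-treated tumors lay between the pairs of EtOH-treated tumors. Its log2 fold change was 1.64 (SE 0.86, adjusted p = 0.342 with edgeR's quasi-likelihood test) with all tumors and -0.39 without calcipotriol replicate 1. The exons of Timp3 share 1733 bases with those of Syn3, a gene on the opposite strand with 395 counts over all 8 tumors. Whether reads were counted by strand is not given in the sources used here, so reads of the 2 genes in these bases cannot be told apart. Timp1 lies within Syn1 in the same way, but their exons share 0 bases. Timp4 was not tested, with at most 17 counts in a tumor and 0 counts in all EtOH-treated tumors.

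**Figure D2:**
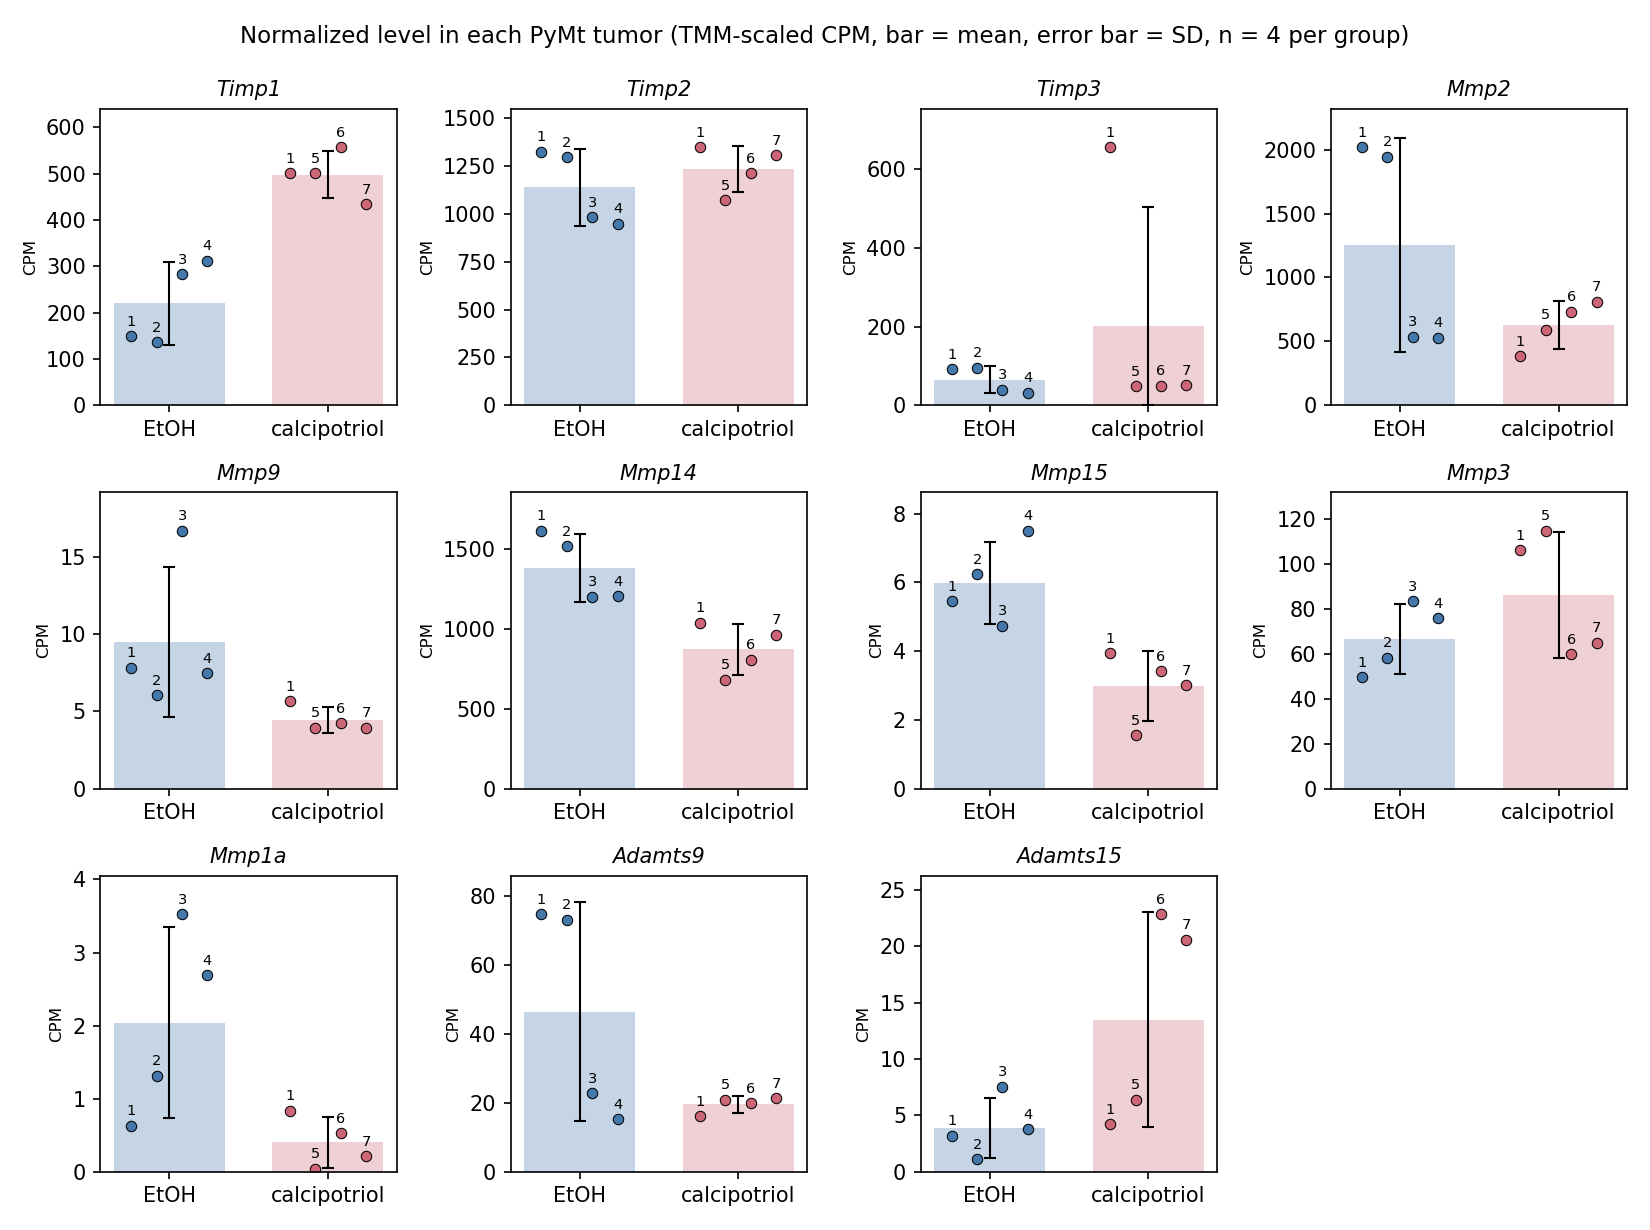
TMM-scaled CPM (y axis, from 0, with its own scale in each panel) of the 11 members chosen by the naming rule, in 4 EtOH-treated (blue) and 4 calcipotriol-treated (red) tumors, with points for tumors and their replicate numbers, bars for means and error bars for the SD, drawn no lower than 0. The calcipotriol-treated tumors lie above all EtOH-treated tumors for Timp1 and below all of them for Mmp9, Mmp14 and Mmp15.

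The gelatinases MMP2 and MMP9 cut denatured collagen and collagen IV of basement membranes, and MMP14 is a collagenase anchored in the cell membrane that activates MMP2. Mmp14 (ENSMUSG00000000957, chromosome 14, 54431612 to 54445364) was at 1612, 1514, 1199 and 1204 CPM in EtOH replicates 1, 2, 3 and 4. In calcipotriol replicates 1, 5, 6 and 7 it was at 1037, 681, 807 and 963 CPM. All calcipotriol-treated tumors lay below all EtOH-treated tumors, and calcipotriol replicate 1 was the nearest to them. Mmp14 had a log2 fold change of -0.66 (SE 0.17, adjusted p = 0.0737 with edgeR's quasi-likelihood test). The adjusted p was 0.00390 with DESeq2 and 0.035 with edgeR without calcipotriol replicate 1, and over all alternatives it ran from 0.00390 to 0.224. The log2 fold change lay between -0.84 and -0.46 in all of them and so never reached the threshold of 1.

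Mmp15 (ENSMUSG00000031790, chromosome 8, 95352268 to 95375080) encodes another membrane-anchored MMP and was at a low level. It was at 5.45, 6.23, 4.74 and 7.50 CPM in EtOH replicates 1, 2, 3 and 4 and at 3.93, 1.55, 3.41 and 3.01 CPM in calcipotriol replicates 1, 5, 6 and 7. The groups did not overlap, with calcipotriol lower. This gave a log2 fold change of -1.0 (SE 0.35, adjusted p = 0.156 with edgeR's quasi-likelihood test). The other 4 genes grouped here as membrane-anchored MMPs, Mmp16, Mmp17, Mmp24 and Mmp25, had at most 17 counts in a tumor and were not tested. Mmp23 was grouped with the other MMPs and is given with them.

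Mmp9 (ENSMUSG00000017737, chromosome 2, 164940780 to 164955850) was at 7.83, 6.04, 16.7 and 7.45 CPM in EtOH replicates 1, 2, 3 and 4. In calcipotriol replicates 1, 5, 6 and 7 it was at 5.64, 3.93, 4.23 and 3.94 CPM. The groups did not overlap, but calcipotriol replicate 1 and EtOH replicate 2 were close, and EtOH replicate 3 stood above the rest. For Mmp9 the log2 fold change was -1.10 (SE 0.34, adjusted p = 0.123 with edgeR's quasi-likelihood test), and it was -0.68 without EtOH replicate 3. DESeq2 gave an adjusted p of 0.0424, and over all alternatives it ran from 0.0377 to 0.273.

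Mmp2 (ENSMUSG00000031740, chromosome 8, 92827291 to 92853420) was at 2017, 1944, 534 and 528 CPM in EtOH replicates 1, 2, 3 and 4. It was at 382, 591, 730 and 808 CPM in calcipotriol replicates 1, 5, 6 and 7. EtOH replicates 1 and 2 were far above all other tumors, while EtOH replicates 3 and 4 lay within the range of the calcipotriol-treated tumors. With all tumors Mmp2 had a log2 fold change of -1.0 (SE 0.46, adjusted p = 0.275 with edgeR's quasi-likelihood test). It was 0.24 without EtOH replicates 1 and 2 and -1.66 without EtOH replicates 3 and 4 (adjusted p = 0.674 and 0.0129 with edgeR, the highest and the lowest over all alternatives).

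The EtOH-treated tumors were also split for most tested ADAMTS genes. EtOH replicates 1 and 2 were both above 3 and 4 for Adamts1, Adamts5, Adamts6, Adamts7, Adamts9, Adamts10 and Adamts12, and both below them for Adamts8 and Adamts15. Adamts9 (ENSMUSG00000030022, chromosome 6, 92772699 to 92943492), whose enzyme cuts versican and aggrecan, was at 74.8, 73.2, 22.9 and 15.3 CPM in EtOH replicates 1, 2, 3 and 4. It was at 16.1, 21.0, 19.9 and 21.4 CPM in calcipotriol replicates 1, 5, 6 and 7. The groups overlapped through EtOH replicate 4, while EtOH replicate 3 was just above all calcipotriol-treated tumors. Adamts9 had a log2 fold change of -1.25 (SE 0.45, adjusted p = 0.172 with edgeR's quasi-likelihood test) with all tumors. It was 0.035 without EtOH replicates 1 and 2 and -1.92 without EtOH replicates 3 and 4 (adjusted p = 0.952 and 0.000574 with edgeR). DESeq2 gave an adjusted p of 0.0421, and over all alternatives it ran from 0.000574 to 0.952. Exons of Adamts9 share 1381 and 424 bases with 2 genes of the opposite strand, A730049H05Rik and Gm15737, which had 58.4 and 66 counts over all tumors. Adamts1, named after its values were seen, encodes a protease of versican and was at 237, 217, 49.8 and 34.4 CPM in EtOH replicates 1, 2, 3 and 4. In calcipotriol replicates 1, 5, 6 and 7 it was at 74.4, 55.2, 98.0 and 97.6 CPM, between these pairs of EtOH-treated tumors. Its log2 fold change was -0.73 (SE 0.54, adjusted p = 0.520 with edgeR's quasi-likelihood test) with all tumors. It was 0.95, without overlap, when EtOH replicates 1 and 2 were left out and -1.48, without overlap, when EtOH replicates 3 and 4 were (adjusted p = 0.103 and 0.0102, and 0.0102 to 0.832 over all alternatives).

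Summed markers of vessel cells were also higher in EtOH replicates 1 and 2 than in 3 and 4, but all calcipotriol-treated tumors lay below both pairs. This split was not particular to vessel cells, and 29.0% of all genes tested shared it. The epithelial, fibroblast, neutrophil, erythroid, T cell and skin sums were also higher in EtOH replicates 1 and 2 than in 3 and 4. The macrophage, basal, mast cell, osteoclast and muscle sums were lower in EtOH replicates 1 and 2. Single markers of vessel cells departed from their sums. EtOH replicates 1 and 2 were not both above 3 and 4 for Kdr, Tek, Des and Myh11, and calcipotriol-treated tumors were not all below EtOH replicates 3 and 4 for Cdh5, Tek, Kcnj8, Abcc9 and Notch3. The summed level of 8 endothelial markers was 338, 367, 164 and 161 CPM in EtOH replicates 1, 2, 3 and 4 and 119, 65.4, 85.2 and 92.8 CPM in calcipotriol replicates 1, 5, 6 and 7. All 8 had log2 fold changes below 0, and 5 of the 8 were called lower, or 2 when EtOH replicate 2 or calcipotriol replicate 5, 6 or 7 was left out. Without EtOH replicates 1 and 2, 2 were called (Kdr and Vwf), against 7 without EtOH replicates 3 and 4, and limma-voom called 3. Cdh5 was the most abundant of the 8 markers and 0 were absent from all tumors. For 6 mural markers, led by Rgs5, the sum was 160, 179, 73.4 and 72.4 CPM with EtOH and 48.7, 35.3, 49.3 and 56.6 CPM with calcipotriol, in the same order of replicates. Of these 6, 5 were below 0 on the log2 scale and 1, Rgs5, was called lower with edgeR. DESeq2, and edgeR without a filter on low counts, called 3 lower (Des, Kcnj8 and Rgs5). Without EtOH replicates 3 and 4, edgeR called Abcc9, Kcnj8 and Rgs5 lower. Without EtOH replicates 1 and 2 the call of Rgs5 was lost and Notch3 was called higher. None was absent from all tumors. In bulk samples fewer cells of a type and less RNA per cell cannot be told apart. The part of endothelial and mural cells in the levels of Mmp2, Adamts1 and Adamts9 was not tested.

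Among the proteoglycan-cleaving ADAMTS genes, 3 of 6 tested had log2 fold changes above 0 and 3 below, from -1.25 to 1.78. Adamts15 (ENSMUSG00000033453, chromosome 9, 30899155 to 30922452), also a protease of versican and aggrecan, was at the upper end. It was at 3.21, 1.12, 7.53 and 3.79 CPM in EtOH replicates 1, 2, 3 and 4 and at 4.21, 6.40, 22.8 and 20.6 CPM in calcipotriol replicates 1, 5, 6 and 7. Calcipotriol replicates 6 and 7 were above all other tumors, and the other pair lay within the range of the EtOH-treated tumors. It had a log2 fold change of 1.78 (SE 0.63, adjusted p = 0.170 with edgeR's quasi-likelihood test). DESeq2 gave an adjusted p of 0.0370, and over all alternatives it ran from 0.0285 to 0.397. Its neighbor Adamts8 had a log2 fold change of -0.23. Adamts4 and Adamts5, the main aggrecanases of cartilage, had log2 fold changes of 0.03 and 0.63 (adjusted p = 0.956 and 0.417 with edgeR). Adamts20 had at most 4 counts in a tumor and was not tested.

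The remaining ADAMTS genes gave no calls with edgeR's quasi-likelihood test. Adamts2 and Adamts14, which remove the N-terminal propeptide of procollagens, had log2 fold changes of 0.09 and -0.04, and Adamts3, of the same function, had at most 17 counts in a tumor. Adamts7 and Adamts12 encode proteases of cartilage oligomeric matrix protein (COMP). Their log2 fold changes were -0.41 and -0.71 (adjusted p = 0.441 and 0.228). For Adamts6 and Adamts10 the log2 fold changes were 0.66 and -0.01 (adjusted p = 0.238 and 0.986). Adamts13, which cuts von Willebrand factor, and Adamts16, Adamts17 and Adamts19 had at most 16 counts in a tumor, and Adamts18 had 0 in all tumors.

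The genes grouped here as secreted collagenases, Mmp1a, Mmp1b, Mmp8 and Mmp13, were at low levels. As a class, collagenases open the triple helix of fibrillar collagen. Mmp1a (ENSMUSG00000043089, chromosome 9, 7464141 to 7476869) had the log2 fold change farthest from 0 of any tested member. It had 13, 27, 87 and 61 counts in EtOH replicates 1, 2, 3 and 4, or 0.632, 1.31, 3.52 and 2.69 CPM. In calcipotriol replicates 1, 5, 6 and 7 it had 21, 1, 11 and 5 counts, or 0.834, 0.0457, 0.529 and 0.212 CPM. EtOH replicates 3 and 4 were highest, and the groups overlapped because EtOH replicate 1 lay below calcipotriol replicate 1. For Mmp1a it was -2.31 (SE 0.86, adjusted p = 0.187 with edgeR's quasi-likelihood test), and the few reads limit its precision. Over all alternatives it ran from -2.94 without calcipotriol replicate 1 to -1.25 without EtOH replicates 3 and 4, and the adjusted p from 0.0564 to 0.531. Mmp1a and Mmp1b are related copies on 1 chromosome, so how the counting divided their shared reads is uncertain, and Mmp1b itself had at most 19 counts. Collagenase 3, Mmp13, and the neutrophil collagenase Mmp8 had log2 fold changes of 0.98 and 0.00 (adjusted p = 0.226 and 0.998 with edgeR).

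Mmp3 encodes stromelysin 1, which cuts many matrix proteins and activates other MMP precursors. It was at 49.5, 58.1, 83.2 and 75.6 CPM in EtOH replicates 1, 2, 3 and 4 and at 106, 115, 59.6 and 64.7 CPM in calcipotriol replicates 1, 5, 6 and 7. Calcipotriol replicates 1 and 5 were the highest, and the other pair lay among the EtOH-treated tumors. Mmp3 had a log2 fold change of 0.37 (SE 0.24, adjusted p = 0.456 with edgeR's quasi-likelihood test). Mmp12, the macrophage elastase, was named after its values were seen. It was at 2.04, 1.61, 16.4 and 14.6 CPM in EtOH replicates 1, 2, 3 and 4 and at 15.8, 14.5, 9.71 and 12.8 CPM in calcipotriol replicates 1, 5, 6 and 7. EtOH replicates 1 and 2 alone were low, the opposite of their place for Mmp2. Its log2 fold change was 0.61 (SE 0.64, adjusted p = 0.668 with edgeR) with all tumors, -0.22 without EtOH replicates 1 and 2, and 2.85 without EtOH replicates 3 and 4 (adjusted p = 0.649 and 0.00380, and 0.00380 to 0.863 over all alternatives). Mmp10 (stromelysin 2) and Mmp11 had log2 fold changes of -0.75 and 0.05, and Mmp7 (matrilysin) had at most 1 count in a tumor. Among the other MMPs, Mmp19, Mmp23 and Mmp28 had log2 fold changes of 0.54, 0.03 and -0.10 (adjusted p = 0.271, 0.984 and 0.796 with edgeR). Mmp27 had at most 40 counts in a tumor and was not tested, and Mmp20 and Mmp21 had 0 counts in all tumors. A count of 0 allows up to 3 counts, or 0.146 CPM in the tumor where 3 counts weigh most.

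Exons of Adamts4, Adamts7, Adamts8, Mmp11, Mmp12, Mmp19 and Mmp28 also overlap those of a gene on the opposite strand. The largest overlap among these was 789 bases of Mmp19 with Tmem198b, which had 5804 counts over the 8 tumors, so the level of Mmp19 is uncertain for the same reason as that of Timp3.

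Markers of other cells of the tumor are given for the same tumors, and their part in the levels of the members was not tested. For 10 macrophage markers, led by C1qa, the sum was 2300, 2314, 2767 and 2836 CPM in EtOH replicates 1, 2, 3 and 4 and 2048, 1243, 1218 and 1054 CPM in calcipotriol replicates 1, 5, 6 and 7. All 10 were below 0 on the log2 scale and 2, Adgre1 and Csf1r, were called lower with edgeR. DESeq2 called 4 lower (Adgre1, C1qb, Csf1r and Mertk) and limma-voom 3 (Adgre1, C1qb and Csf1r). With edgeR, 7 were called lower without calcipotriol replicate 1, and 0 without any other single tumor. The macrophage sum was lower in all calcipotriol-treated tumors, and calcipotriol replicate 1 was nearest to the EtOH-treated tumors. This also held for the epithelial, endothelial and erythroid sums and for Mmp14 and Mmp9. Unlike Mmp14, the macrophage sum was lower in EtOH replicates 1 and 2 than in 3 and 4. Single macrophage markers departed from their sum, and only 5 of the 10 were lower without overlap. In calcipotriol replicate 1, Cd68 and Fcgr1 were above all EtOH-treated tumors, at 88.4 and 52.7 CPM. Mertk and Mrc1 were at their lowest of all tumors there, at 8.14 and 181 CPM. For 8 fibroblast markers, led by Col3a1, the sum was 6079, 5735, 5618 and 5133 CPM with EtOH and 4131, 3867, 6054 and 6795 CPM with calcipotriol. The fibroblast sums overlapped, and 0 of the 8 were called by edgeR, DESeq2 or limma-voom (2 at an unadjusted p under 0.05). With edgeR Dcn was called higher without calcipotriol replicate 1, Pdgfra without EtOH replicates 1 and 2, and Lum without EtOH replicates 3 and 4. Within the sum, Col1a1, Col1a2, Lum and Thy1 were lower in EtOH replicates 1 and 2 than in 3 and 4, and Col3a1, Pdgfra, Pdgfrb and Dcn were higher. For 8 epithelial markers, led by Krt8, it was 1251, 1322, 1012 and 1082 CPM with EtOH and 891, 593, 681 and 608 CPM with calcipotriol, with 0 called by any of these tools (2 at an unadjusted p under 0.05). These 2, Krt18 and Krt8, were lower without overlap. Krt18 had a log2 fold change of -0.93 (adjusted p = 0.0162 with edgeR), short of the threshold of 1, and was called lower without EtOH replicate 3 or calcipotriol replicate 1. The other 4 tested, Epcam, Elf3, Cdh1 and Krt19, had log2 fold changes above 0 (2.62, 0.77, 0.45 and 0.39) with overlap, so the sum reflects Krt8 and Krt18. Without EtOH replicates 3 and 4, Krt18 was called lower and Krt19 higher. For 5 basal markers, led by Krt14, it was 2.58, 1.17, 5.43 and 5.12 CPM with EtOH and 5.28, 24.4, 58.2 and 51.8 CPM with calcipotriol. Here 2 of the 5, Krt14 and Trp63, were called higher with edgeR and DESeq2 and 0 with limma-voom. The sum, which Krt14 leads, was highest in calcipotriol replicates 6 and 7, but Trp63 and Krt17 were highest in calcipotriol replicate 5. Krt5 overlapped between the groups, with a log2 fold change of -0.27, and Oxtr was not tested. Both basal calls were lost without EtOH replicate 1, 2 or 3 and without calcipotriol replicate 5, 6 or 7. That of Krt14 was also lost without EtOH replicate 4, without EtOH replicates 1 and 2, and without EtOH replicates 3 and 4. For 6 erythroid markers, led by Hbb-bs, the sum was 5595, 5836, 3510 and 3457 CPM with EtOH and 820, 434, 609 and 532 CPM with calcipotriol, and 5 were called lower. For 11 neutrophil markers, led by S100a9, it was 96.8, 108, 35.8 and 34.9 CPM with EtOH and 43.5, 156, 72.6 and 53.1 CPM with calcipotriol, with 0 called by any of the tools (1 at an unadjusted p under 0.05), although edgeR called Csf3r lower without EtOH replicates 3 and 4. None of these lists had a marker absent from all tumors. The lists for T cells, B cells, mast cells, osteoclasts, skeletal muscle, fat and skin gave 1 call with edgeR and with limma-voom, Fabp4 of fat cells, which was lower. With DESeq2 Kit of mast cells and Myh1 of muscle were also called lower, and edgeR called Kit without calcipotriol replicate 1. Some of these lists split the EtOH-treated tumors. The sum of 6 muscle markers, led by Acta1, was 4.82, 4.04, 37.5 and 37.5 CPM in EtOH replicates 1, 2, 3 and 4 and 1.83 to 7.45 CPM with calcipotriol, and that of 6 mast cell markers, led by Tpsb2, was 19.2, 22.4, 54.1 and 54.5 CPM and 18.2 to 50.8 CPM. The skin markers Dsg1a and Flg had 0 counts in all tumors.

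Genes were compared with each other per kilobase of their longest transcript. In EtOH-treated tumors the highest members, in CPM per kilobase (SD, n = 4), were Mmp14 at 427 ± 65.6, Mmp2 at 408 ± 272, Timp2 at 307 ± 53.7 and Timp1 at 249 ± 102. In calcipotriol-treated tumors the order of these 4 was Timp1 at 564 ± 57.0, Timp2 at 333 ± 33.0, Mmp14 at 269 ± 49.2 and Mmp2 at 204 ± 60.7. Neighbors in this order differed by less than the larger of their SDs with EtOH and by more than both SDs with calcipotriol. The next member, Mmp3, was at 37.0 ± 8.61 with EtOH and 47.9 ± 15.6 with calcipotriol, far below these 4. The highest ADAMTS gene over all tumors was Adamts1, at 27.6 ± 22.0 with EtOH and 16.6 ± 4.22 with calcipotriol, and Adamts8 came next, at 23.5 ± 9.32 with EtOH. Adamts8 was above Adamts1 in EtOH replicates 3 and 4, in calcipotriol replicates 1 and 5 and in the mean of the calcipotriol-treated tumors.

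Summed over each family, TIMP levels were 546, 523, 594 and 616 CPM per kilobase in EtOH replicates 1, 2, 3 and 4 and 1070, 867, 968 and 854 in calcipotriol replicates 1, 5, 6 and 7. The sums for MMPs were 1225, 1169, 646 and 633 with EtOH and 559, 507, 564 and 645 with calcipotriol, in the same order. TIMP sums were higher in all calcipotriol-treated than in all EtOH-treated tumors, while MMP sums overlapped because EtOH replicate 4 lay below calcipotriol replicate 7. The ratio of the MMP to the TIMP sum was 2.24, 2.23, 1.09 and 1.03 with EtOH and 0.522, 0.584, 0.583 and 0.755 with calcipotriol. It was thus above 1 in all EtOH-treated and below 1 in all calcipotriol-treated tumors, and it does not depend on the scaling of libraries. The side of 1 does depend on division by transcript length. From sums of CPM, the ratio was 2.43, 2.38, 1.52 and 1.51 with EtOH and 0.674, 0.932, 0.949 and 1.11 with calcipotriol. In calcipotriol replicate 1, the ratio was 0.600 when Timp3 was left out. Mmp2 and Mmp14 made up 79.4% to 94.1% of the MMP sum in each tumor. These ratios describe RNA levels and were not tested. Protein and enzyme activity were not measured here. ADAMTS sums were 91.4 to 153 with EtOH and 77.0 to 109 with calcipotriol.

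**Figure D3:**
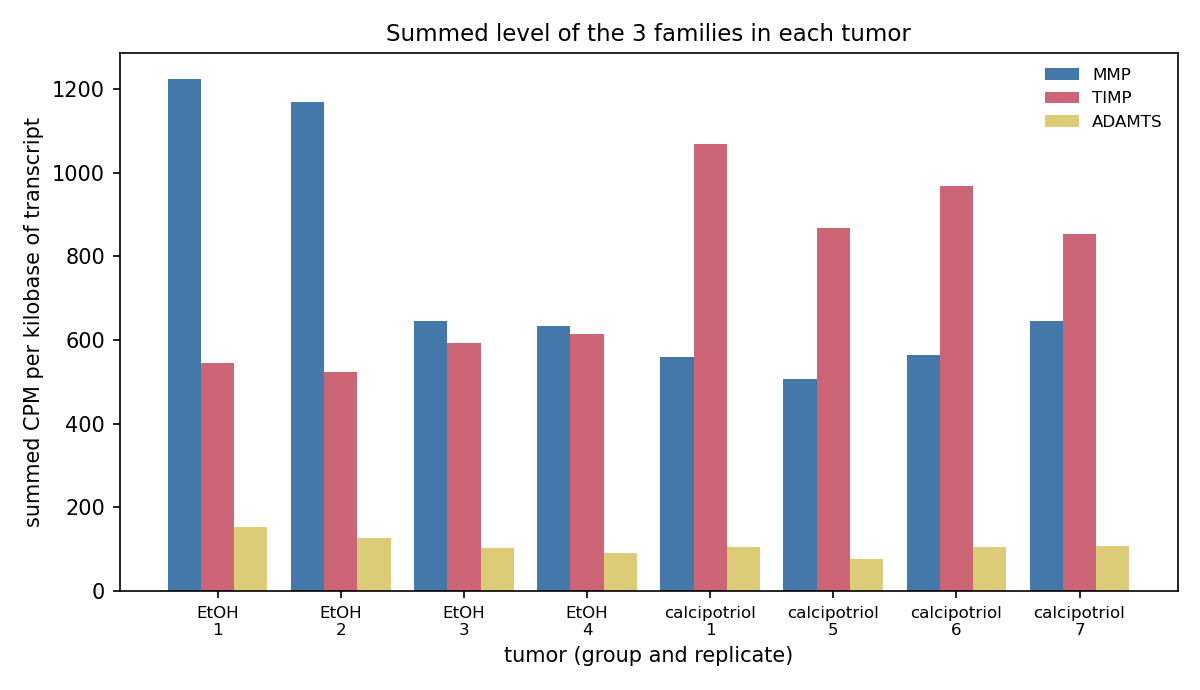
Summed CPM per kilobase of transcript (y axis, from 0) of the MMP (blue), TIMP (red) and ADAMTS (yellow) genes in each of the 8 tumors (x axis, group and replicate), 1 bar per family and tumor with no error bar. The MMP bar is above the TIMP bar in all 4 EtOH-treated tumors and below it in all 4 calcipotriol-treated tumors.

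Members also shared positions in the genome. Of the MMP genes, 10 lie together on chromosome 9 between 7272514 and 7699585 in GRCm38, a span of 427 kilobases that holds Mmp13, Mmp12, Mmp1b, Mmp3, Mmp1a, Mmp10, Mmp8, Mmp27, Mmp20 and Mmp7. The 6 that were tested had log2 fold changes from -2.31 for Mmp1a to 0.98 for Mmp13. Adamts1 and Adamts5 lie within 108 kilobases on chromosome 16, and Adamts15 and Adamts8 within 64.7 kilobases on chromosome 9.

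Promoter sequences from RefSeq (GRCm38.p6) were found for 32 of the 46 members. The AP-1 motif TGANTCA, searched on both strands in the 250 bases before the gene start, was present in 8 of the 32 members (25%) and in 7.82% of 27025 genes with a promoter, or 6.75% of all 32851 promoters. All 8 lie in the chromosome 9 cluster, so they are neighbors and related copies rather than separate observations. The vitamin D DR3 motif was found in 0 of the 32 members and in 12 of all genes. This says only that these letters are not in these windows. A match is a description of sequence and not a site of binding. The 8 AP-1 matches lie in 8 of the 10 genes of the cluster, and Mmp8 and Mmp27 had 0 matches in their windows. They are shown with 10 bases on either side, written 5′ to 3′ on the strand of the gene with the motif in capitals. The windows on the forward strand are chr9:7502269-7502295 for Mmp10, chr9:7347320-7347346 for Mmp12, chr9:7272469-7272495 for Mmp13, chr9:7464058-7464084 for Mmp1a, chr9:7628126-7628152 for Mmp20, chr9:7445766-7445792 for Mmp3 and chr9:7692017-7692043 for Mmp7. The window on the reverse strand is chr9:7388103-7388129 for Mmp1b.
Mmp10: agcacccatgTGAGTCAtgcttagtga
Mmp12: acatcaacagTGAGTCAgatagaggat
Mmp13: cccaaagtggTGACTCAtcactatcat
Mmp1a: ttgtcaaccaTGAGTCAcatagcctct
Mmp1b: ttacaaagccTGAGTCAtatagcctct
Mmp20: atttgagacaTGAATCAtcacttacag
Mmp3: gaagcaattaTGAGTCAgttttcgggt
Mmp7: agtgtgcaaaTGAGTCAcctatttcca
The motif began 35 to 95 bases before the RefSeq start of the gene in all 8. For Mmp12 the window lies within the gene as GENCODE M21 places it, from 7344381. Among the tested genes with it, Mmp13, Mmp12 and Mmp3 had log2 fold changes of 0.98, 0.61 and 0.37 and Mmp1a and Mmp10 of -2.31 and -0.75. With all tumors none of them was called with edgeR. Mmp10 was called lower without calcipotriol replicate 1, and Mmp12 was called higher without EtOH replicates 3 and 4.

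Other genes of matrix proteolysis were taken from lists that cover the partners of the members. Of 9 listed MMP inhibitors and inducers, 7 were tested and 1 was called higher, Lcn2, whose product binds MMP9. It was called under all alternatives. Lcn2 was at 13.7, 15.5, 10.9 and 15.0 CPM in EtOH replicates 1, 2, 3 and 4 and at 43.0, 184, 79.3 and 85.0 CPM in calcipotriol replicates 1, 5, 6 and 7. The groups did not overlap, and the log2 fold change was 2.83 (SE 0.38, adjusted p = 0.00683 with edgeR's quasi-likelihood test). Of 7 genes of plasminogen activation, a system that activates MMP precursors, 6 were tested. Of these, 4 had an unadjusted p under 0.05 (18.4% over all genes tested) and 1 was called higher. This was Serpine2, an inhibitor of plasminogen activators and thrombin. It was at 28.7, 28.7, 25.3 and 34.7 CPM with EtOH and at 306, 155, 77.3 and 73.2 CPM with calcipotriol, without overlap, a log2 fold change of 2.38 (SE 0.42, adjusted p = 0.0179 with edgeR). This call was lost without EtOH replicate 1, 2 or 3, without both EtOH replicates 1 and 2, and without both EtOH replicates 3 and 4. Serpinb2, named after its values were seen, was at 0.292, 0, 1.86 and 1.23 CPM with EtOH and at 4.01, 5.44, 17 and 11.9 CPM with calcipotriol, without overlap. Its log2 fold change was 3.47 (SE 0.89, adjusted p = 0.0680 with edgeR), and it was called higher with DESeq2, without a filter on low counts, without calcipotriol replicate 1 and without EtOH replicates 3 and 4. Of 10 listed ADAMTS substrates, 7 were tested and 2 were called lower, Vwf and Nid2, with log2 fold changes of -1.75 and -1.62 (adjusted p = 0.0179 and 0.0404 with edgeR). Both calls were lost without EtOH replicate 2 or calcipotriol replicate 5, 6 or 7. That of Nid2 was also lost without EtOH replicate 1 or 4, without both EtOH replicates 1 and 2, and with library totals in place of TMM. Vwf is also 1 of the 8 endothelial markers.

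The lists of ADAM proteases, ADAMTS-like proteins, astacin proteases with procollagen C-proteinase enhancers, proprotein convertases and cysteine cathepsins gave 0 calls in either direction with edgeR and with limma-voom. DESeq2 called 2 of these genes higher, Adamtsl1 and Adamtsl5, and edgeR called Adamtsl1 without a filter on low counts and without calcipotriol replicate 1. Without EtOH replicates 3 and 4, edgeR called Adamtsl1, Adam8 and Ctsk higher. At an unadjusted p under 0.05 they held 1 of 10, 3 of 7, 2 of 4, 0 of 4 and 2 of 6 genes tested, against 18.4% of all genes tested. The smallest p of each list belonged to Adam15, Adamtsl1, Pcolce2, Pcsk5 and Ctss, with log2 fold changes of -0.44, 1.70, 0.43, 1.03 and -0.65. Next came Adam9, Adamtsl5, Pcolce, Pcsk7 and Ctsh, at -0.25, 1.5, -0.33, -0.18 and -0.45. Adamtsl1 and Papln, of the same list, were higher with calcipotriol without overlap (adjusted p = 0.0725 and 0.415 with edgeR). Spock2, with the second smallest p among the MMP inhibitors and inducers, had a log2 fold change of 2.60 (adjusted p = 0.349 with edgeR) and was called higher without EtOH replicate 3. Without EtOH replicates 3 and 4, Spock2 and A2m of that list were called higher and the ADAMTS substrate Comp lower.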

How the data were processed

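RNA of 8 tumors was isolated by the authors and sequenced by a company, and the authors deposited estimated counts per gene (expected counts, not scaled between tumors). The submitters' processing notes name STAR 2.5.3, RSEM 1.3.1, DESeq2 1.24.0 and GRCm38; the annotation release is not given in the sources used here. Of the values of a tumor, 4.20% to 6.22% were not whole, so the estimated counts were rounded, the only change to the planned edgeR test. The table has 0 columns of other samples. Groups came from the labels.

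Identifiers were matched to GENCODE M21 (52133 of 55414). In R 4.3.3, edgeR 4.0.16 (filterByExpr, TMM, glmQLFit, glmQLFTest) was fitted over all genes, and SEs were derived from the fold change and the F statistic. Log2 CPM used a prior count of 2. The biological coefficient of variation was 0.347. Totals of 19685397 to 25084715 counts put 3 counts at 0.119 to 0.146 CPM, a floor for counting error only, because PCR copies of 1 molecule are not separate observations. Alternatives were DESeq2's size factors, library totals alone, other filters on low counts, DESeq2 1.42.0, limma-voom (limma 3.58.1), removal of erythroid genes, no fold change minimum and each tumor left out. The pairs of EtOH replicates 1 and 2, and 3 and 4, were also left out, chosen after seeing the data. DESeq2 was first run on all genes with a count and was put behind edgeR's filter after its number of calls had been seen. Both forms are given.

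The members and gene lists were chosen with earlier results of these data known. Values in every tumor are given for members with an adjusted p under 0.05, members with a mean of at least 10 counts whose groups do not overlap, the 5 tested members with the largest absolute log2 fold change, and the 6 with the highest level per kilobase. Of other pathway lists, genes with an adjusted p under 0.05 and the 2 smallest p per list are named, except 1 gene that is not reported here.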

Additional observations from a re-analysis of the deposited data

Results flagged for a closer look

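Dixon's test on log2 of CPM plus 0.1, which compares the distance from the farthest tumor to its nearest neighbor with the spread of its group, marked 3 of 58 groups of 4 tumors, over the 29 tested members. Chance alone gives about 1 in 20 groups, or 2.9 of the 58. In calcipotriol replicate 1, Timp3 was at 656 CPM, while calcipotriol replicates 5, 6 and 7 had 48.1 to 50.1 CPM. Mmp10 was at 9.81 CPM in the same tumor and at 1.55 to 1.87 CPM in the other 3. Adamts14 was at 47.5 CPM in EtOH replicate 2, with 66.3 to 70.2 CPM in EtOH replicates 1, 3 and 4. The cause was not tested for any of them.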

How the results depend on the processing

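For the 11 members chosen by rule and for Adamts1 and Mmp12, 211 of 234 recomputed log2 fold changes kept their direction and their call. Those of Mmp14, Mmp15, Mmp1a and Mmp3 did so under all alternatives. The log2 fold change reversed for Adamts9 (0.035), Mmp2 (0.24), Adamts1 (0.95) and Mmp12 (-0.22) without EtOH replicates 1 and 2, for Timp2 (-0.085) without EtOH replicates 3 and 4, and for Timp3 without calcipotriol replicate 1 (-0.39, and up to 1.96 with another tumor left out). The cause was not tested. These pairs were left out after the data had been seen.

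DESeq2 called 2 members higher, 2 lower and 644 genes in all, against 1, 0 and 292 with edgeR; it gave no adjusted p to 2 of the 29 tested members, Timp3 among them. DESeq2 had first been run on all genes with a count and was put behind edgeR's filter after that number of calls had been seen; the first form called 2 members higher, 2 lower and 774 genes in all. With edgeR and no filter on low counts, 458 genes were called. Library totals alone called 175 genes higher and 94 lower, against 155 and 137, and shifted the median log2 fold change of all genes to 0.10. With 1 tumor left out, members called higher ranged from 0 to 1, members called lower from 0 to 1 (Mmp10 without calcipotriol replicate 1), all genes called from 110 to 642, and members without overlap from 4 to 7 (14.3% to 23.0% of all genes). The call of Timp1 was lost in 6 of these 8 fits. Without EtOH replicates 1 and 2, 0 members were called higher, 177 genes were called and 11 of 30 members did not overlap (32.6% of all genes). Without EtOH replicates 3 and 4, 3 members were called higher (Mmp12, Mmp19 and Timp1) and 4 lower (Adamts1, Adamts12, Adamts9 and Mmp2), 605 genes were called and 16 of 32 members did not overlap (35.3% of all genes). Fewer tumors make a lack of overlap more frequent by construction. No paired analysis was possible because the groups share only replicate number 1. Depth limits Mmp1a and the 17 members that were not tested.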
